A study of Capra hircus with 72 samples.

Results

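Blood RNA of goats transported for 180 min was set directly against blood RNA of goats transported for 30 min. The members were the 120 genes, identified by gene ID, that appeared both in the authors' deposited table of 180 min transport against control (1247 genes, of which the members were 9.62%) and in the one of 30 min against control (430 genes, 27.9%), out of 1557 genes with any blood value. Counts for both transported groups were given only for these genes. By the listed biotype 112 were protein-coding, 6 lincRNA, 1 miRNA and 1 mitochondrial ribosomal RNA, and 88 carried a gene symbol.

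The animals were intact male Spanish goats (Capra hircus), 8 months old, from a study of 54 goats with 18 in each treatment. Goats of the 180 min group travelled about 200 km in a livestock trailer and gave 7 blood libraries (goats 10, 11 and 13 to 17), goats of the 30 min group travelled about 50 km and gave 4 (goats 21, 22, 24 and 27), and control goats stayed in pens and gave 7. All had feed withheld overnight, travel took place in near-freezing weather on more than one day, and no label ties a library to a day, so the part of the day in a difference was not tested. Each library is a different goat, the duration groups share no goat, and distance and time travelled together, so the length of travel in time and in distance cannot be told apart.

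Transport is a stressor that raises catecholamines within minutes and cortisol over a longer span, and cortisol acts through the glucocorticoid receptor, a transcription factor that induces genes such as DUSP1, SGK1 and DDIT4. Both hormones move neutrophils, monocytes and lymphocytes in and out of the circulation, so whole blood RNA changes with the mix of cells as well as within cells. In bulk RNA, fewer cells of a type and less RNA per cell cannot be told apart.

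Library totals were 11.3 to 34.1 M counts (M for 1e+06) at 180 min (median 26.1), 13.99 to 22.9 at 30 min (median 19.4) and 10.4 to 39.5 in controls (median 20.6), and levels are given as counts per M of that total (CPM). The members made up 0.309% to 1.61% of a library at 180 min, 0.419% to 0.651% at 30 min and 0.279% to 0.343% in controls. The highest 180 min shares were those of goats 15 (1.61%) and 16 (1.14%), and the lowest was that of goat 10. Of the 120 genes, 85 averaged 1 CPM or more over the 11 transported libraries and 54 averaged 10 or more. A gene was a member only if its unadjusted p against the 7 shared control libraries was under 0.05 in each table. Each group's values thus took part in the choice, and a direct difference between them is not independent of it. By that listing 57 members were higher than control in both tables, 59 were lower in both, and 4 (INHBA, GAREM2, SPHK1 and ENSCHIG00000001668) were higher at 180 min and lower at 30 min. Just inside the limit stood RGS1, at p = 0.0491 in the authors' deposited table for 180 min, and ENSCHIG00000006789, at p = 0.0498 in the authors' deposited table for 30 min.

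No member passed the edgeR test of the direct difference, and SLC26A8 and PTX3 were called higher at 180 min by DESeq2. The edgeR quasi-likelihood test with Benjamini-Hochberg adjustment over the 120 genes called 0 higher and 0 lower (0% in each direction). At an unadjusted p under 0.05, 9 genes (7.5%) were higher at 180 min and none lower, and 4 of the 9 were those listed in opposite directions against control. DESeq2 called 5 higher (4.17%) and 0 lower, of which INHBA, GAREM2 and ENSCHIG00000001668 were also among those 4. Their gap was part of the listing, so the tests restate it for them and leave 2 DESeq2 calls and 5 genes at an unadjusted edgeR p under 0.05. By contrast limma on log2(CPM + 0.5) called none. An exact two-sided permutation test also called none, and each had 5 genes at an unadjusted p under 0.05. The smallest p that the permutation test can give, 0.00303, does not pass the adjustment over 120 genes for a gene standing alone. Its lack of calls therefore decides nothing. The same dependence on the listing, less directly, holds for every member. Without goat 13 of the 180 min group edgeR called 1 gene, SLC26A8, at an adjusted p of 0.0467.

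The fitted log2 difference, 180 min minus 30 min, had a median of 0.33 over the 120 genes, with 88 above 0 and 32 below. These include fitted values of 7 genes too sparse for a fold. Over the other 113 genes, 82 lay above 0 and 31 below, and the median was 0.30 with genes at 0 set at their bound. The shift depended on the averaging, the scaling and the goats. The difference between mean log2(CPM + 0.5) levels had a median of 0.04, edgeR with TMM scaling, which centres the listed genes by construction, gave -0.01, and edgeR without goats 15 and 16 gave 0.08. Genes listed higher than control in both tables had a median of 0.36 (47 above 0 and 10 below), and genes listed lower in both had 0.18 (37 and 22, or a median of 0.07 with genes at 0 set at their bound). The 95% interval of the log2 difference extended a median of 1.21 to either side among genes of 10 CPM or more. It reached past a 2-fold difference in both directions for 59 genes, and it lay within 2-fold either way for 9, namely EZH2, MBD4, DDIT4, ACP5, MS4A1, SLC1A5, FGL2, ID3 and ITGA10.

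**Figure D1:**
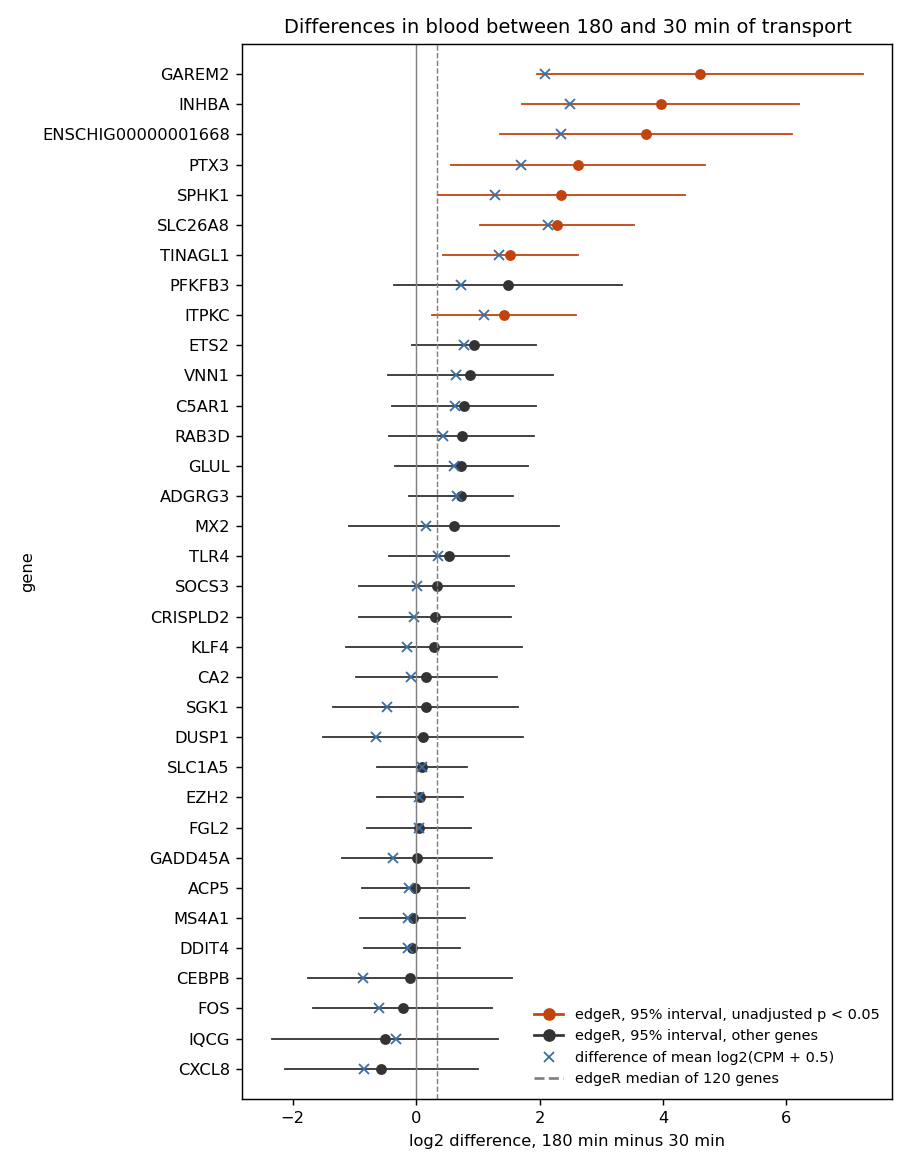
Log2 differences, 180 min minus 30 min, of the 34 named genes apart from ENSCHIG00000004084. Circles with bars are edgeR estimates with 95% intervals (red at an unadjusted p under 0.05), crosses are differences of mean log2(CPM + 0.5), and the dashed line marks the median of 0.33 over all 120 genes. GAREM2 stands at the top with 4.59 and CXCL8 at the bottom with -0.56, and crosses lie left of circles for most genes.

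SLC26A8 (ENSCHIG00000014807, chromosome 23, 38764658 to 38832076, plus strand) encodes an anion transporter known in human and mouse mainly from sperm. At 180 min goats 10, 11 and 13 to 17 had 87.0, 61.7, 15.8, 38.7, 110, 98.3 and 34.3 CPM, against 21.1, 5.56, 11.4 and 14.2 CPM in the 30 min goats and 1.4 to 12.5 in controls. All but goat 13 of the 180 min group exceeded the highest 30 min goat, goat 21, which was the only 30 min goat above goat 13. The overlap of the groups thus rested on goats 13 and 21. SLC26A8 differed by 2.29 ± 0.58 on the log2 scale (SE, 95% interval 1.04 to 3.53, edgeR adjusted p = 0.0883), and the adjusted p lay between 0.00124 and 1 over the other settings tried. The exact two-sided permutation p was 0.00909 before adjustment, where the smallest that this test can give is 0.00303.

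TINAGL1 (ENSCHIG00000021015, chromosome 2, 13807904 to 13818137, plus strand), a secreted matrix-associated protein, had 14.9 to 98.8 CPM at 180 min (median 45.9), against 15.8, 13.1, 14.9 and 28.0 CPM at 30 min. Goats 13 and 14 lay within the 30 min range and the other 5 lay above it. TINAGL1 differed by 1.53 ± 0.51 on the log2 scale (SE, edgeR adjusted p = 0.233). ITPKC (chromosome 18, 50888594 to 50904966), a kinase that phosphorylates the calcium messenger inositol trisphosphate, had 12.5 to 103 CPM at 180 min (median 34.7), against 20.2, 16.6, 13.1 and 16.2 CPM at 30 min. Its log2 difference was 1.42 ± 0.55 (SE, edgeR adjusted p = 0.353), and it was 0.81 without goats 15 and 16. Over the 11 libraries the genes most like SLC26A8 in their ranks were ITPKC (Spearman's rho 0.89) and TINAGL1 (0.81), all of them measured in the same libraries.

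PTX3 encodes a long pentraxin, a soluble pattern recognition molecule released by neutrophils and monocytes, and lies on chromosome 1 (ENSCHIG00000012523, 109705569 to 109711190, minus strand). At 180 min its level was 123, 416, 95.7, 294, 2705, 2207 and 509 CPM in goats 10, 11 and 13 to 17, against 216, 127, 125 and 120 CPM at 30 min, while controls had 3.03 to 54.8. Goats 15 and 16 stood far above the rest, and goats 10 and 13 lay within or under the 30 min range. PTX3 differed by 2.63 ± 0.96 on the log2 scale (SE, 95% interval 0.57 to 4.68, edgeR adjusted p = 0.319), it was 1.69 as a difference of mean log2 levels, and it was 0.97 without goats 15 and 16 (edgeR adjusted p = 0.764). Per length PTX3 was the most abundant named gene at 180 min, with a mean of 646 FPKM, against 105 FPKM at 30 min.

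**Figure D2:**
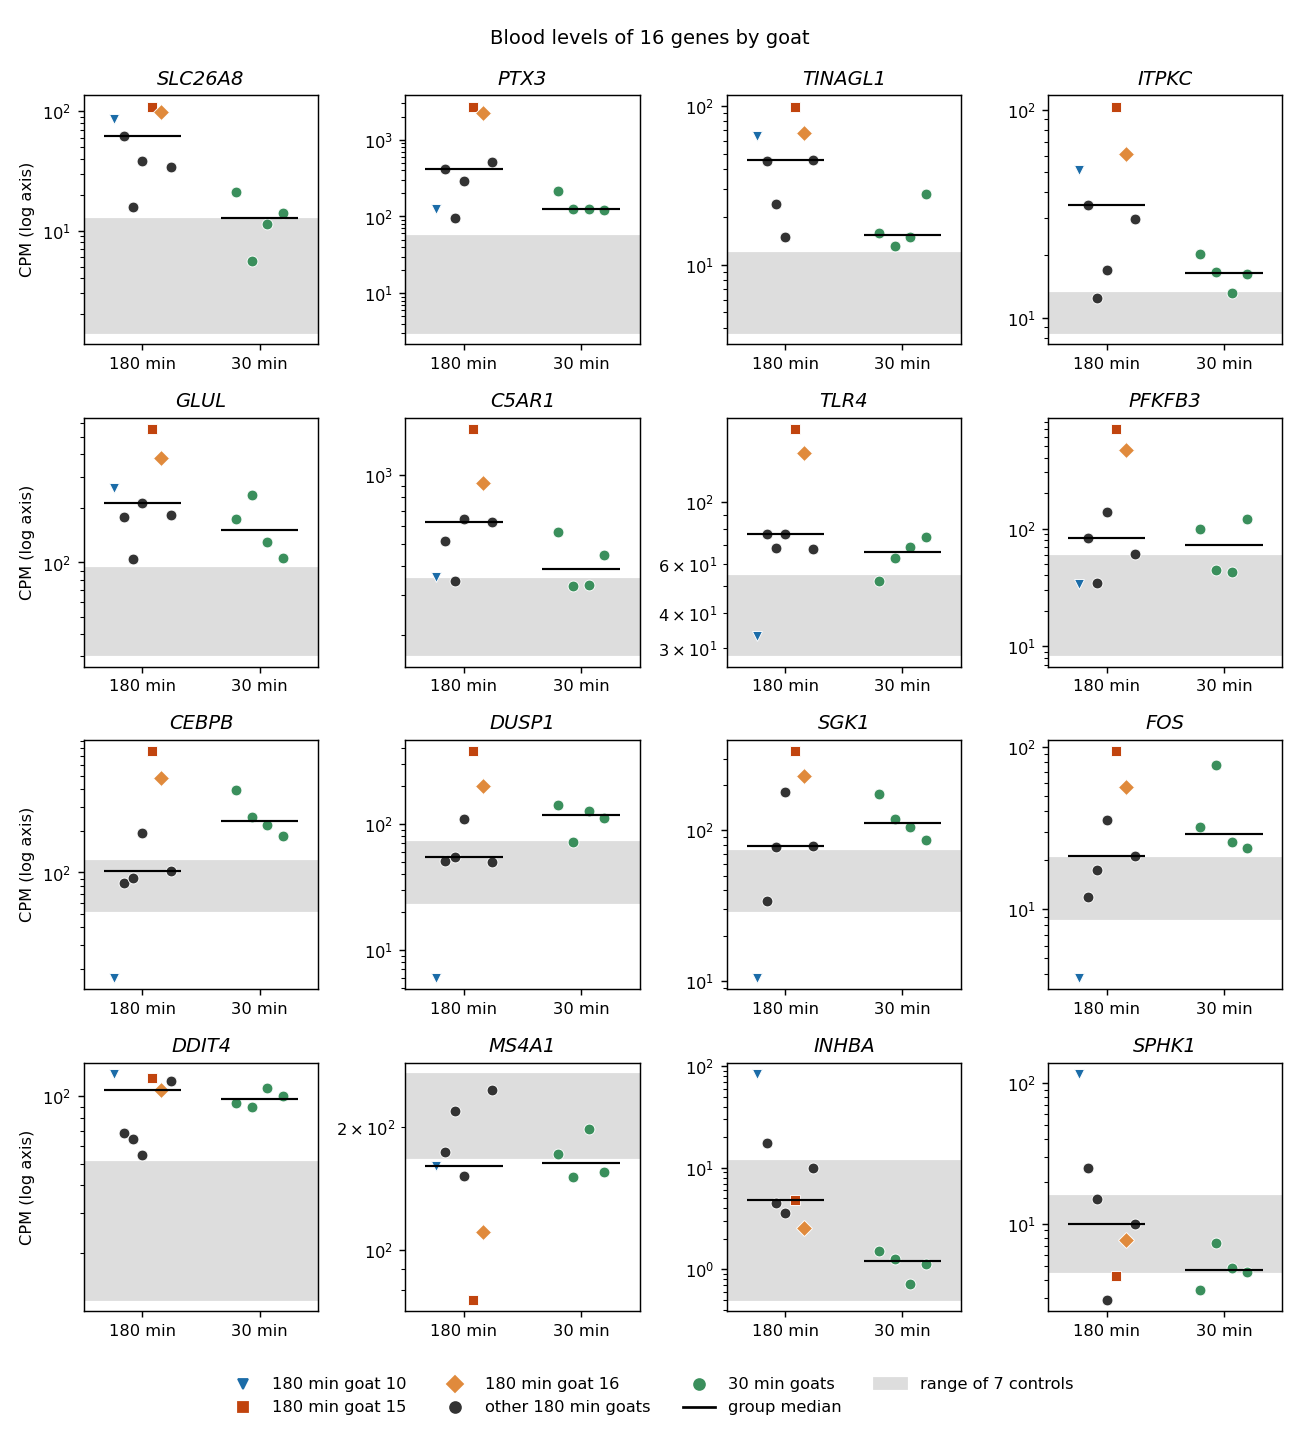
CPM (log axis) of 16 genes in each goat, 180 min left and 30 min right, with group medians as lines and the range of the 7 controls as a grey band. Goats 15 and 16 are the highest points for PTX3 (2705 and 2207 CPM) and CEBPB (753 and 481 CPM), and goat 10 is the lowest for CEBPB (17.3 CPM) and the highest for INHBA (84.4 CPM).

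C5AR1, TLR4 and ADGRG3, receptors of innate immune cells, had fitted differences that did not pass the test. C5AR1, the receptor for the complement fragment C5a on neutrophils and monocytes, had 346 to 1593 CPM at 180 min (median 624), against 565, 329, 331 and 445 CPM at 30 min. Goats 14 to 17 lay above the 30 min range and goats 10, 11 and 13 within it. Its log2 difference was 0.78 ± 0.54 (SE, edgeR adjusted p = 0.984). TLR4, the receptor that senses bacterial lipopolysaccharide, had 33.3 to 182 CPM at 180 min (median 76.6), against 52.1, 63.3, 69.2 and 75.2 CPM at 30 min. Its log2 difference was 0.53 ± 0.45 (SE, edgeR adjusted p = 0.984) and -0.01 without goats 15 and 16. ADGRG3, an adhesion receptor of granulocytes, had 42.3 to 112 CPM at 180 min (median 46.5), against 30.6, 31.8, 33.6 and 50.2 CPM at 30 min. Every 180 min goat exceeded the 30 min median, and goat 27 of the 30 min group lay inside the 180 min range (log2 difference 0.73 ± 0.39, SE, edgeR adjusted p = 0.834). Of the 21 genes in a list of interleukin 1 family and pattern recognition genes, 11 were in the 180 min table and 2 in the 30 min table, and both of these, PTX3 and TLR4, were members.

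Genes of the glucocorticoid response gave no direct difference that passed the test. Of 31 genes in that list, 13 were listed at 180 min, 12 at 30 min and 6 in both: DUSP1, SGK1, DDIT4, CEBPB, GLUL and CRISPLD2. In edgeR 0 of the 6 were called, 4 lay above 0 and 2 below, and the median was 0.13, beside 0.33 over all 120 genes. As a difference of mean log2 levels the median was -0.30, so its direction turned with the averaging, and it was -0.34 with TMM and -0.50 without goats 15 and 16.

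DDIT4, an inhibitor of the growth kinase complex mTORC1, was the steadiest of them, with 54.8 to 126 CPM at 180 min (median 106), against 93.8, 90.1, 109 and 100 CPM at 30 min and 12.3 to 50.8 in controls. Both groups lay above every control and overlapped fully. The log2 difference was -0.06, with a 95% interval from -0.84 to 0.71. GLUL, glutamine synthetase, had 105 to 553 CPM at 180 min (median 215), against 175, 236, 129 and 106 CPM at 30 min, a log2 difference of 0.73 ± 0.50 (SE, edgeR adjusted p = 0.984).

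DUSP1, a phosphatase that switches off MAP kinases, differed far more between the 180 min goats. They had 6.02, 50.7, 54.2, 110, 376, 200 and 50.0 CPM in the order of goats 10, 11 and 13 to 17, against 140, 71.5, 126 and 111 CPM at 30 min. Goats 15 and 16 lay above every 30 min goat, goats 10, 11, 13 and 17 below every one, and goat 14 between. DUSP1 differed by 0.11 ± 0.76 on the log2 scale (SE, edgeR adjusted p = 0.995), and it was -0.66 as a difference of mean log2 levels and -0.52 without goat 15. SGK1, a kinase that acts on ion transport and cell survival, had 10.54 to 334 CPM at 180 min (median 79.3), against 174, 120, 106 and 86.6 CPM at 30 min. Goats 14, 15 and 16 lay above the 30 min range and the other 4 below it, with a log2 difference of 0.15 ± 0.70 (SE, edgeR adjusted p = 0.995) that was -0.26 without goat 15.

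CEBPB, a transcription factor of myeloid differentiation and acute-phase genes, had 17.3, 83.9, 91.8, 195, 753, 481 and 103 CPM in goats 10, 11 and 13 to 17, against 398, 254, 220 and 185 CPM at 30 min. Controls had 52.5 to 121 CPM. Of the 180 min goats, 15 and 16 exceeded every 30 min goat, goat 14 lay among them, and goats 10, 11, 13 and 17 were under the lowest and within or below the control range. CEBPB differed by -0.10 ± 0.77 on the log2 scale (SE, edgeR adjusted p = 0.995), with -0.71 without goat 15 and 0.17 without goat 21. CRISPLD2, a secreted protein that binds lipopolysaccharide, had 68.1 to 633 CPM at 180 min (median 169), against 260, 184, 195 and 255 CPM at 30 min. Its log2 difference was 0.30 ± 0.58 (SE, edgeR adjusted p = 0.984), with -0.05 without goat 15. The genes ranked most like CEBPB over the 11 libraries were SGK1 (Spearman's rho 0.95), FOS (0.94) and SOCS3 (0.93), levels that share libraries and depth.

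Immediate early genes need no new protein for their induction and were listed as 4 of 30 at 180 min and 8 of 30 at 30 min, with 3 in both. None of FOS, KLF4 and DUSP1 was called in edgeR. Their median log2 difference was 0.11, beside 0.33 over all members, and it was -0.60 as a difference of mean log2 levels, -0.53 with TMM and -1.05 without goats 15 and 16. FOS, a subunit of the AP-1 factor, had 3.81 to 93.4 CPM at 180 min (median 21.4), against 32.0, 77.6, 25.9 and 23.8 CPM at 30 min. Goats 10, 11, 13 and 17 lay below every 30 min goat and goat 15 above every one. The log2 difference was -0.22 ± 0.68 (SE, edgeR adjusted p = 0.991), and without goat 22, the highest 30 min goat, it was 0.33. KLF4, a zinc finger factor of monocyte differentiation, had 2.04 to 45.5 CPM at 180 min (median 11.9), against 20.9, 18.7, 7.58 and 13.1 CPM at 30 min, and the groups overlapped (log2 difference 0.29, -0.12 without goat 15).

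Of 24 genes of NF-kB and cytokine feedback, 4 were listed at 180 min, 6 at 30 min and 2 in both, with a median log2 difference of -0.12. SOCS3, an inhibitor of cytokine signalling through JAK kinases, had 26.8 to 209 CPM at 180 min (median 54.7), against 116, 63.5, 66.3 and 47.6 CPM at 30 min. Goats 15 and 16 were the highest of all 11, and the log2 difference was 0.33 ± 0.59 (SE, edgeR adjusted p = 0.984), with -0.01 without goat 15. CXCL8, the chemokine that draws neutrophils, had 1.10 to 21.6 CPM at 180 min (median 3.88), against 12.5, 3.06, 6.65 and 16.6 CPM at 30 min. Its log2 difference of -0.56 ± 0.73 (SE, edgeR adjusted p = 0.984) was the lowest among the named genes, and the groups overlapped. NFKBIA, SOCS1 and CXCR4 were listed for 30 min alone and IL1R2, CLEC4E and IL18RAP for 180 min alone, so their direct difference is not analysed here.

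GADD45A, a growth arrest gene, was among the members nearest to 0, with a log2 difference of 0.01 ± 0.57 (SE), although its 95% interval ran from -1.20 to 1.22. It had 5.93 to 101 CPM at 180 min (median 26.8), against 49.7, 31.6, 42.5 and 36.5 CPM at 30 min. Goats 15 and 16 lay above every 30 min goat, goats 10, 13, 14 and 17 below every one, and without goat 15 the value was -0.40. PFKFB3, which makes the activator of glycolytic phosphofructokinase, had 34.0 to 698 CPM at 180 min (median 82.4), against 100, 44.6, 42.4 and 121 CPM at 30 min. The log2 difference was 1.48 ± 0.86 (SE, edgeR adjusted p = 0.834) with all goats and -0.14 without goats 15 and 16. Of 18 hypoxia and glycolysis genes 6 were listed at 180 min and 4 at 30 min, and PFKFB3 and DDIT4 in both.

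ETS2, VNN1, RAB3D and SLC1A5, which the authors had called against control, overlapped between the groups. ETS2, a transcription factor, had 57.5 to 272 CPM at 180 min (median 124), against 79.9, 50.8, 60.5 and 82.8 CPM at 30 min, a log2 difference of 0.94 ± 0.47 (SE, edgeR adjusted p = 0.718). VNN1, a pantetheinase, had 2.49 to 22.4 CPM at 180 min (median 16.1), against 5.59, 13.1, 3.57 and 5.36 CPM at 30 min, with a log2 difference of 0.88 ± 0.62 (SE). RAB3D, a small GTPase of secretory vesicles, had 7.21 to 57.8 CPM at 180 min (median 21.1), against 13.4, 15.8, 22.7 and 11.9 CPM at 30 min, with a log2 difference of 0.74 ± 0.55 (SE). In each of these 3 genes at least 3 of the 180 min goats lay above the 30 min range while others lay inside or below it. SLC1A5, a glutamine transporter, was closer, with 13.7 to 26.4 CPM at 180 min (median 18.4), against 11.3, 19.2, 22.2 and 17.6 CPM at 30 min and a 95% interval from -0.64 to 0.82. By the authors' deposited table, 16 members were called at 180 min against control, where the authors called 70 of the 1247 listed genes (0.704% of 9944 adjusted). By the authors' deposited table for 30 min, 2 members were called, CEBPB and GADD45A, where the authors called 5 of 430 (0.0241% of 20719 adjusted). The numbers of genes adjusted were recovered from the deposited p-values. All members had first passed an unadjusted p under 0.05, so those percentages are not a like base for them.

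MX2, the member among 26 interferon-stimulated genes, encodes an antiviral GTPase and had 19.8 to 360 CPM at 180 min (median 47.7), against 168, 64.7, 45.9 and 32.2 CPM at 30 min. Goats 14 and 15 of the 180 min group and goat 21 of the 30 min group were high, and the controls had 27.7 to 46.5. The log2 difference was 0.61 ± 0.80 (SE, edgeR adjusted p = 0.984), with 0.01 without goat 15 and 1.32 without goat 21. FGL2, a fibrinogen-like protein of macrophages and T cells, had 178 to 360 CPM at 180 min (median 289), against 376, 306, 222 and 236 CPM at 30 min, and the difference of 0.04 had a 95% interval from -0.79 to 0.88. CA2, a carbonic anhydrase of red cells, had 4.78 to 50.8 CPM at 180 min (median 22.6), against 37.0, 27.3, 23.9 and 15.7 CPM at 30 min, with full overlap.

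The 4 genes listed in opposite directions had fitted differences of 2.35 to 4.59. That gap was built into their listing, so the values are a description and support nothing. INHBA, which encodes the activin A subunit, had 84.4, 17.4, 4.54, 3.61, 4.79, 2.58 and 10.03 CPM in goats 10, 11 and 13 to 17, against 1.5, 1.27, 0.71 and 1.13 CPM at 30 min (chromosome 4, 40862502 to 40878751). Controls had 0.50 to 11.6 CPM. The transported groups did not overlap, goats 10 and 11 lay above every control, and the other 5 lay within the control range, as did all 30 min goats. The log2 difference was 3.96 ± 1.05 (SE), and it was 2.62 without goat 10.

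GAREM2, an adaptor of growth factor signalling to ERK, was near the detection limit at 30 min. It had 0.40 to 11.96 CPM at 180 min (median 1.90), against 0, 0.26, 0 and 0.24 CPM at 30 min, with no overlap and a log2 difference of 4.59 that was 3.76 without goat 10. ENSCHIG00000001668, annotated as a miRNA gene without a symbol (chromosome 19, 8929131 to 8929217, minus strand), had 5.20 to 198 CPM at 180 min (median 10.3), against 3.91, 3.28, 1.43 and 4.05 CPM at 30 min. Its log2 difference was 3.72, and 2.34 without goat 10. SPHK1, which phosphorylates sphingosine, had 2.88 to 116 CPM at 180 min (median 10.03), against 3.41, 7.31, 4.86 and 4.59 CPM at 30 min. Its groups overlapped, and the log2 difference of 2.35 was 1.09 without goat 10. Goat 10 was the highest in all 4. INHBA, GAREM2 and ENSCHIG00000001668 were thus the only members whose groups did not overlap (2.5% of 120 higher at 180 min and 0% lower).

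Among members listed lower than control in both tables, MS4A1, ACP5 and EZH2 had fitted differences near 0 and intervals within 2-fold either way. MS4A1, the B cell surface protein CD20, had 75.4 to 248 CPM at 180 min (median 161), against 172, 152, 198 and 156 CPM at 30 min and 168 to 271 in controls. The lowest were goats 15 and 16 and the highest goats 13 and 17, and the log2 difference was -0.06 with a 95% interval from -0.91 to 0.80. ACP5, a tartrate-resistant acid phosphatase, had 39.3 to 141 CPM at 180 min (median 78.4), against 89.1, 77.4, 106 and 69.7 CPM at 30 min (95% interval -0.88 to 0.85). EZH2, the methyltransferase of Polycomb complexes, had 8.59 to 15.2 CPM at 180 min (median 14.1), against 10.3, 12.5, 12.9 and 14.6 CPM at 30 min (95% interval -0.64 to 0.75). IQCG, an IQ motif protein, was low in both, with 0 to 1.28 CPM at 180 min (median 0.34), against 0.73, 0.92, 0.79 and 0.18 CPM at 30 min, while controls had 0.49 to 13.3.

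Many of these lower genes were too sparse to compare. Of the 120 members 9 had no count in any 30 min library, and 7 had at most 3 counts in each group and are given no fold. ENSCHIG00000004084 (chromosome 18, 2318403 to 2514958), the remaining gene with an unadjusted edgeR p under 0.05, had 15 counts over the 180 min libraries, against 0 over the 30 min libraries. In the order of goats 10, 11 and 13 to 17 these were 0, 0, 1, 2, 7, 0 and 5 counts. Pooled over libraries, the gene was at least 2.24-fold higher at 180 min, taking 3 counts over the 30 min group as the limit that a count of 0 allows. That bound allows for neither the error of the 15 counts nor the spread between goats. The edgeR adjusted p of ENSCHIG00000004084 was 0.558.

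Genes listed higher than control in both tables spread more widely between goats at 180 min than at 30 min. The SD of log2(CPM + 0.5) was larger among the 7 goats at 180 min for 94 of 120 genes, with a median of 0.75, against 0.40 among the 4 goats at 30 min and 0.61 among controls. For the 57 genes listed higher it was larger in 50 (medians 1.14 at 180 min, 0.43 at 30 min and 0.45 in controls). For the 59 listed lower it was larger in 40, with near-equal medians of 0.36 at 180 min and 0.34 at 30 min and 0.76 in controls. Only 27 of these 59 averaged 1 CPM or more, and the added 0.5 narrows the SD of sparser genes. The count of 94 includes 9 genes whose SD at 30 min was 0 because every count there was 0. Without goat 10 the count was 91, and without goats 10, 15 and 16 it was 77, where the genes listed higher had medians of 0.62 at 180 min and 0.43 at 30 min. The biological coefficient of variation that edgeR estimated over the members was 0.860 at 180 min, against 0.516 at 30 min. Among the 44 genes listed higher in both tables with 10 CPM or more, 42 had the larger SD at 180 min (medians 1.13 at 180 min, 0.40 at 30 min and 0.45 in controls). The 7 genes listed lower with 10 CPM or more had medians of 0.64 at 180 min, 0.20 at 30 min and 0.25 in controls. At that level the wider spread was thus not particular to genes listed higher. Both transported groups took part in choosing the genes by their distance from control. With 4 goats at 30 min, a gene of modest difference was more readily listed where those goats spread little. The difference in spread is thus not independent of the listing, and it was not tested.

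**Figure D3:**
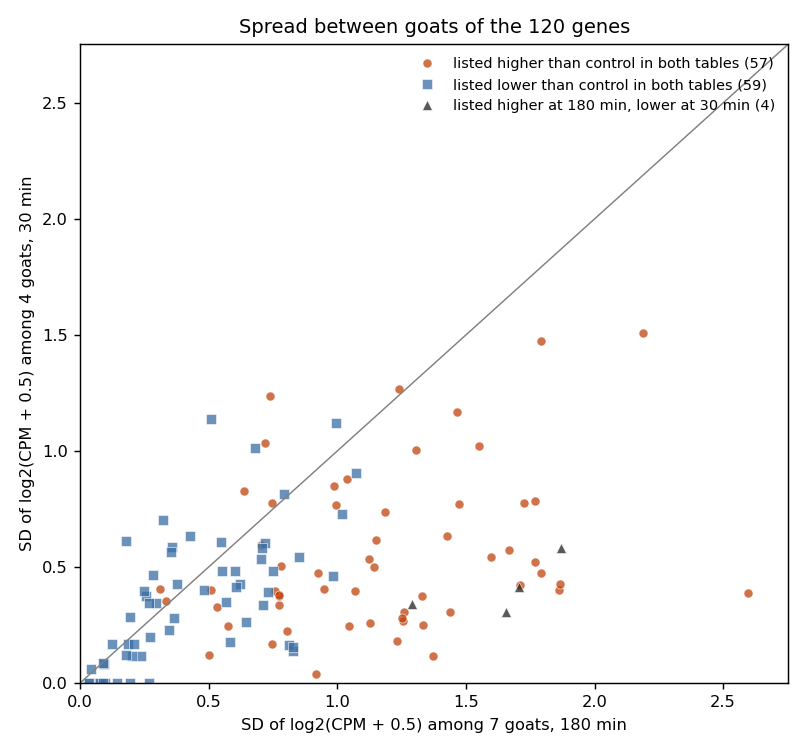
SD of log2(CPM + 0.5) of each member among the 7 goats at 180 min (x axis) and the 4 goats at 30 min (y axis), with the line of equal spread. For 94 of 120 genes the SD was larger at 180 min, and genes listed higher than control lie furthest to the right.

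The same goats gave that spread in gene after gene. Of the 44 genes, goat 15 was above every 30 min goat in 42 and the highest of all 11 in 36, and goat 16 was above every 30 min goat in 38. Goat 10 was below every 30 min goat in 29 and the lowest of the 11 in 28. Among the 7 genes listed lower with 10 CPM or more, goat 15 was the lowest of the 11 in 5. Each count rests on the same few animals, so the genes are not separate observations.

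**Figure D4:**
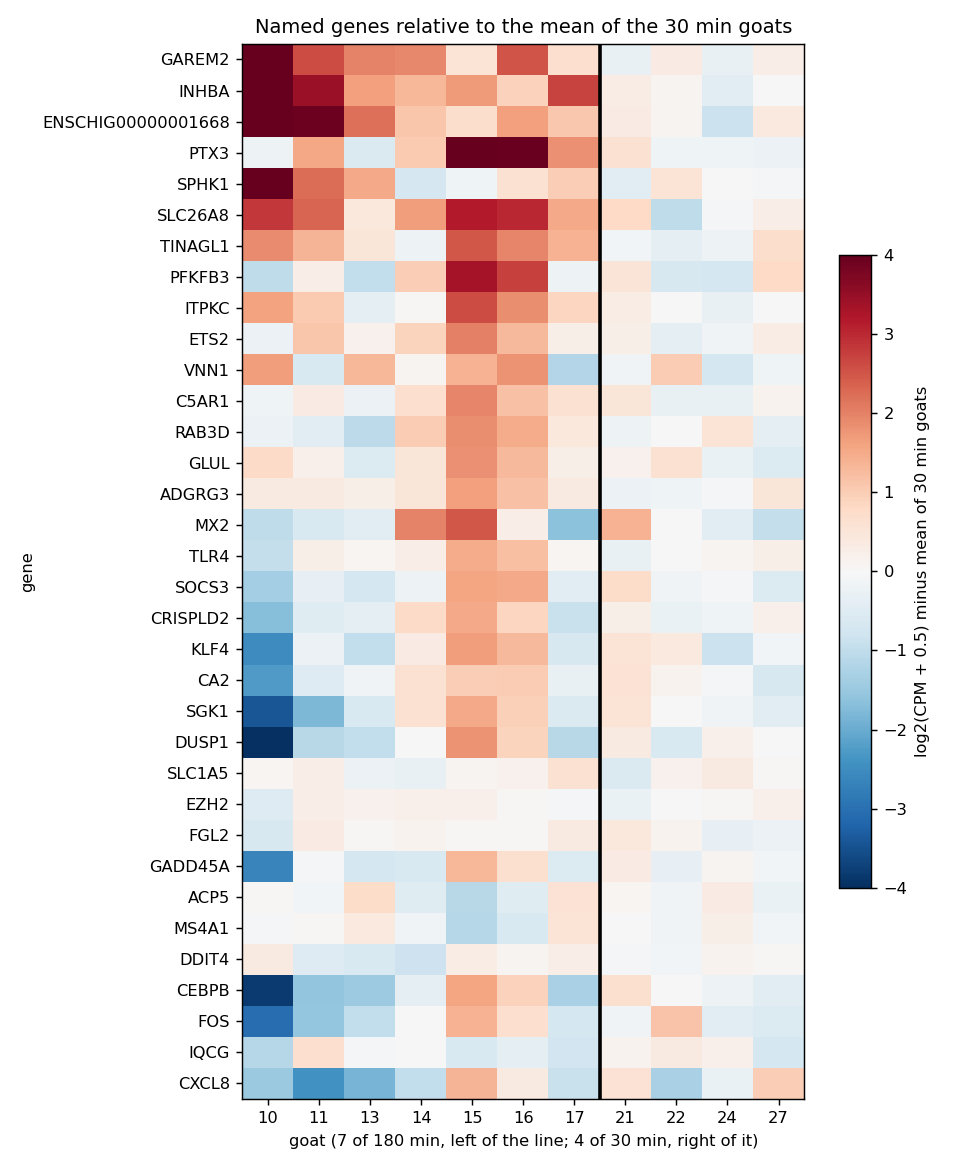
Log2(CPM + 0.5) of 34 named genes in each goat minus the mean of the 30 min goats, with 180 min goats left of the line and colours capped at 4 in either direction. Goat 15 is red for most upper and middle rows, and goat 10 is blue for CEBPB, DUSP1, SGK1 and FOS and deep red for INHBA, GAREM2, SPHK1 and ENSCHIG00000001668.

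Summed levels of blood cell markers also differed between the 180 min goats. The markers are in the tables because they differed from these controls at an unadjusted p under 0.05, so their distance from controls was fixed by the listing and is a description. Of 31 neutrophil markers 12 were listed at 180 min, S100A8 and S100A12 among them, with a summed level of 14690 CPM in goat 10 and 5361 to 10408 CPM in the other 180 min goats, against 1720 to 6183 CPM in controls. The 6 listed of 16 monocyte markers summed to 1504 and 1288 CPM in goats 15 and 16 and 615 to 1040 CPM in the other 180 min goats, against 188 to 595 CPM in controls. The 9 listed of 36 T and NK cell markers, the CD3 chains CD3D, CD3E and CD3G among them, summed to 396 to 711 CPM at 180 min, against 547 to 835 CPM in controls, and goat 10 was the lowest. Of 14 platelet markers 4 were listed at 180 min, and the sum over all 4 is not reported here. The 3 platelet genes GP1BB, CLEC1B and SELP, chosen after seeing the data, summed to 1007 CPM in goat 10. They summed to 23.3 to 159 CPM in the other 180 min goats, against 7.48 to 170 CPM in controls. For the 30 min goats the tables gave 5 B cell markers, which summed to 465 to 669 CPM, against 476 to 1455 CPM in controls. They gave 1 neutrophil marker, with 283 to 538 CPM at 30 min, against 78.7 to 359 CPM in controls. It is none of the 12 neutrophil markers summed above, and no marker of monocytes or of T and NK cells was given. The part of cell mix in the differences between 180 min and 30 min was therefore not tested. No heat shock gene (of 13) was listed in either blood table, 1 clock gene (of 19) was listed at 180 min alone, and no eosinophil or basophil marker (of 11) was listed.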

How the data were processed

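Per the file headers, the authors deposited for each blood comparison raw counts per gene, normalized counts, FPKM, a log2 fold change, a p-value and an adjusted p-value. From the values, the deposited normalized counts (a signal) are counts divided by 1 size factor per library in each table, and the deposited FPKM are counts over the listed gene length (in bases, another deposited column) and over a library total. No source used here names the aligner, counter, strand setting, genome build or annotation, so coordinates carry no named build and overlapping or near-identical genes have uncertain counts. Each table holds only genes with an unadjusted p-value under 0.05.

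Library totals were recovered from count, length and FPKM. The counts of the 120 genes in both tables were tested with edgeR 4.0.16 (quasi-likelihood, library size set to that total, no further scaling factor, 11 libraries) and adjusted by Benjamini-Hochberg over the 120 genes at 0.05. The dispersion was estimated on these selected genes alone. Alternatives were DESeq2 1.42.0, limma 3.58.1 with trend (pseudocount 0.5 or 5), an exact permutation test, the authors' size factors, TMM, a filter at 1 CPM, all 18 blood libraries in the fit, adjustment over 9944 genes and leaving out each goat. R 4.3.3, Python 3.11.15 and pandas 2.3.3 were used, and the edgeR step was tested on simulated data (120 genes). There it called 34.6% of genes set to differ 4-fold, 63.8% of those set to differ 8-fold and 0.573% of unchanged genes. True differences of that size could thus be missed. P-values set the difference between groups against the spread between goats. The edgeR fit shared its dispersion between the groups, although the estimated variation differed (0.860 at 180 min and 0.516 at 30 min). Intervals rest on that shared dispersion, and floors of 3 counts cover counting error only.

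The members and gene lists were chosen with earlier results of these data known. Genes with a gene symbol are named if they belong to a list, were called by the authors, or are among the 5 of 10 CPM or more with the smallest difference. A further part of the rule, the 12 largest called differences in each direction, named none. The called members ENSCHIG00000008003 and ENSCHIG00000012186 have no symbol and fall outside the rule. INHBA, GAREM2, SPHK1, ENSCHIG00000001668, ENSCHIG00000004084, MBD4, ID3, ITGA10 and RGS1 were named after their values were seen. Leaving out goats 15 and 16 together, DESeq2 with a mean dispersion trend, totals without PTX3 counts, the sum of 3 platelet genes and SDs without goat 10 or goats 10, 15 and 16 were chosen after seeing the data. Goat numbers do not pair the groups. Muscle libraries were not used here, and the chemokine receptor and adhesion list is not reported here.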

Additional observations from a re-analysis of the deposited data

Results flagged for a closer look

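In 70 groups of libraries (35 named genes at 180 min and at 30 min), 8 held a sample far from the others of its group. A chance rate of about 1 in 20 groups is no yardstick for this count. Of the 35 genes 5 were named after their values were seen, INHBA, GAREM2, SPHK1 and ENSCHIG00000001668 among them. All genes were also measured in the same libraries. At 180 min goat 10 stood apart from the other 6 goats in 5 genes: high for INHBA (84.4 CPM), GAREM2 (11.96 CPM), ENSCHIG00000001668 (198 CPM) and SPHK1 (116 CPM), and low for FGL2 (178 CPM). That library also had the smallest total of the 180 min group, 11.3 M counts (M for 1e+06), the highest sum of neutrophil markers and the highest sum of the platelet genes GP1BB, CLEC1B and SELP (1007 CPM, against 23.3 to 159 CPM in the other 180 min goats), and the part of these in the values was not tested. At 30 min goat 22 was high for FOS (77.6 CPM), goat 21 for PTX3 (216 CPM) and goat 27 for ADGRG3 (50.2 CPM).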

How the results depend on the processing

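The count of genes called higher at 180 min was 0 in edgeR, 5 in DESeq2 and 4 in DESeq2 with a mean dispersion trend. Over fits leaving out 1 goat it ranged from 0 to 1, and in the other settings it was 0. Among the latter, the permutation test could not call a gene standing alone, because its smallest possible p does not pass the adjustment. No setting called a gene lower. Signs turned among small log2 differences. TMM over the listed genes gave each library its own factor, lowest in goat 10 (0.67) and highest in goat 15 (2.06). The median over all members was 0.33 in edgeR and -0.01 with TMM. For the 4 genes listed in opposite directions it was 3.84 in edgeR and 4.12 with TMM. Differences whose sign turned with TMM were CA2 -0.27, CRISPLD2 -0.18, DUSP1 -0.53, EZH2 -0.16, FGL2 -0.14, GADD45A -0.47, KLF4 -0.27, SGK1 -0.41, SLC1A5 -0.10 and SOCS3 -0.18. With limma at a pseudocount of 0.5 and in the permutation test, whose differences are the same, they were CA2 -0.084, CRISPLD2 -0.042, DUSP1 -0.66, GADD45A -0.37, KLF4 -0.15 and SGK1 -0.47. At a pseudocount of 5 they were CA2 -0.020, CRISPLD2 -0.034, DUSP1 -0.54, GADD45A -0.27, KLF4 -0.020 and SGK1 -0.39. Without goats 15 and 16 they were ACP5 0.21, CA2 -0.34, CRISPLD2 -0.32, DUSP1 -1.05, GADD45A -0.73, KLF4 -0.67, MS4A1 0.17, PFKFB3 -0.14, SGK1 -0.68, SOCS3 -0.64 and TLR4 -0.0068. Limma and the permutation test used the same libraries and totals, but took differences of mean log2 levels where edgeR fitted mean levels. Their signs thus turned with the averaging and the pseudocount. For the fit without goats 15 and 16 the cause was not tested.

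Leaving out 1 goat at a time gave log2 ranges on both sides of 0 for ACP5 (-0.18 to 0.11), CA2 (-0.028 to 0.38), CEBPB (-0.71 to 0.17), CRISPLD2 (-0.054 to 0.47), DDIT4 (-0.15 to 0.033), DUSP1 (-0.52 to 0.32), EZH2 (-0.030 to 0.13), FGL2 (-0.058 to 0.21), FOS (-0.71 to 0.33), GADD45A (-0.40 to 0.20), KLF4 (-0.12 to 0.49), MS4A1 (-0.19 to 0.068), SGK1 (-0.26 to 0.37), SLC1A5 (-0.071 to 0.22) and SOCS3 (-0.011 to 0.64). SLC26A8 ranged from 2.03 to 2.62 and PTX3 from 2.05 to 2.87. Members are selected genes, 35 of them under 1 CPM, so depth and the 4 goats at 30 min limit small differences. No paired analysis was possible because the 180 min and 30 min groups share no goat number.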

Other observations

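Other members outside the gene lists are described here, named after their values were seen. ANKRD22, an ankyrin repeat protein, had an SD of log2(CPM + 0.5) of 2.60 at 180 min (n = 7), against 0.39 at 30 min (n = 4). Goat 10 had 0 counts of it, and without that goat the SD at 180 min was 1.23 (n = 6). Its log2 difference was 0.82 ± 1.00 (SE). PTAFR, the receptor for platelet-activating factor, had SDs of 1.77 at 180 min and 0.52 at 30 min. WLS, which carries Wnt proteins to the cell surface, had SDs of 0.92 at 180 min and 0.038 at 30 min. MARCKS, a substrate of protein kinase C, differed by 0.43 ± 0.63 (SE) and STEAP4, a metalloreductase, by 0.50 ± 0.70 (SE), neither past the test.

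PLK1 and CCNB2 were listed lower than control in both tables. PLK1, a mitotic kinase, differed by 0.37 ± 0.39 (SE) and CCNB2, cyclin B2, by 0.27 ± 0.50 (SE) on the log2 scale, 180 min minus 30 min. Neither passed the edgeR test.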
